A study of Mus musculus with 18 samples.

Results

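The difference in mRNA decay between tristetraprolin-deficient and wild-type macrophages over 90 min was measured on 12 of the 18 arrays of the series, 3 in each of 4 groups. The groups were wild type (WT) and TTP-/- (KO) bone marrow-derived macrophages (macrophages grown from marrow of C57Bl/6 mice with M-CSF), each at 0 and at 90 min. The cells on all 12 arrays had received lipopolysaccharide (LPS, a bacterial cell wall component that activates macrophages) for 3 h. The medium was then replaced with medium holding actinomycin D, a blocker of transcription, together with the p38 kinase inhibitor SB203580, so that in both genotypes transcription and p38 were blocked for the same length of time. The labels do not give the animals' age, nor whether each replicate was its own animal or culture; the p-values therefore describe the spread between these arrays, which may be technical. The 6 arrays at 45 min did not enter the fit and are given beside it as values.

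Tristetraprolin (TTP, encoded by Zfp36) is an RNA-binding protein that attaches to AU-rich elements in the 3′ untranslated region of short-lived mRNAs and recruits the CCR4-NOT deadenylase complex, which removes the poly(A) tail and starts decay. LPS induces TTP in macrophages, and p38 signalling through the kinase MK2 keeps TTP phosphorylated and less active, so that blocking p38 releases its activity. TTP is best known for limiting TNF: mice without it develop an inflammatory syndrome driven by that cytokine.

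The quantity followed here, the decay difference, is the log2 change from 0 to 90 min in KO minus the log2 change in WT. A positive value means that KO kept more of its starting signal than WT. In the counts below, a smaller or larger loss in KO names only the sign of this difference, also for genes that did not fall. It was fitted for 19454 genes with limma and adjusted over all of them by the Benjamini-Hochberg method, with errors given as SE and intervals at 95%. Because the arrays had been brought to a shared distribution of signals before deposit, a change is relative to the other mRNAs on the array, and a loss shared by all mRNAs is not visible. The arrays carry sample numbers in 2 runs, the lower holding replicate 3 of every group and the higher holding replicates 1 and 2. On the first principal component (25.8% of the variance) the lower run lay between 12.1 and 35.3 and the higher run between -22.8 and -0.91, and the run was a block in the fit.

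A pair of KO arrays went against the order of their labels in time. In the limma fit of all 12 arrays, 111 genes lost at least 1 log2 unit in WT by 90 min at an adjusted p below 0.05. The KO change did not enter this choice, but the KO arrays shared in the error estimate behind the p. Of these genes, 98 were lower at 90 than at 45 min in KO replicate 1 and 103 in KO replicate 3. In KO replicate 2 only 4 were lower and 107 were higher. The median change from 45 to 90 min in these genes was 0.68 in KO replicate 2, against -0.57 and -0.60 in KO replicates 1 and 3. In WT replicates 1, 2 and 3 it was -0.81, -0.85 and -0.55. The WT arrays at 90 min also served to choose the genes, so a fall in WT was favoured by the choice. The array labelled KO at 90 min, replicate 2 therefore held more, and the array labelled KO at 45 min, replicate 2 held less, of the short-lived mRNAs than the other KO arrays with the same time label. The cause was not tested and the labels were kept. Values without the array labelled KO at 90 min, replicate 2 are given beside those of all 12 arrays.

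**Figure D1:**
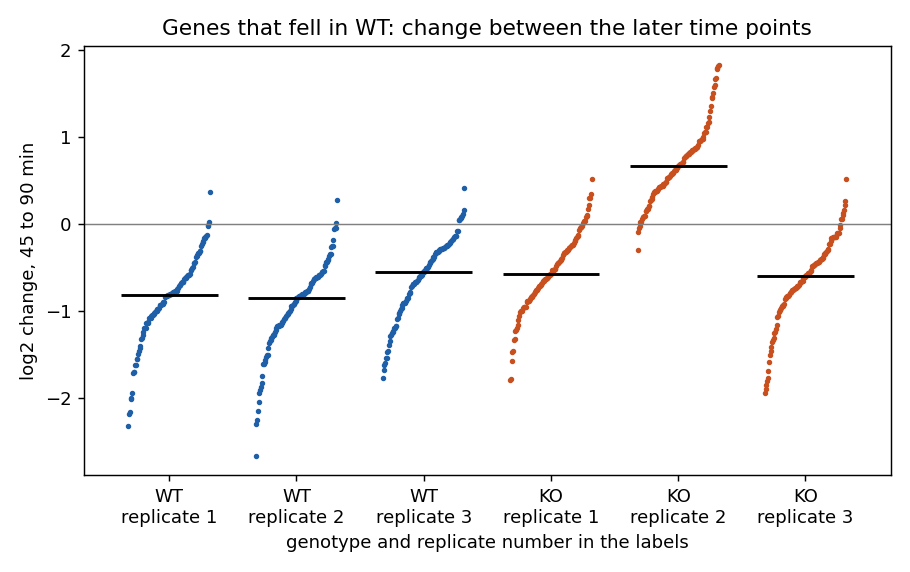
Log2 change in intensity from 45 to 90 min of the 111 genes that lost signal in WT, with 1 point per gene and 1 column per genotype and replicate; the black bar is the median. The points lie mostly below 0 in 5 columns, and in KO replicate 2 they lie mostly above 0, with a median of 0.68.

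The cells were checked against markers. All 8 macrophage markers had a mean signal above the signal limit, taken as the median of all row means, an intensity of 7.83. Their summed intensity ranged from 9360 to 13200 over the 12 arrays, with Lyz2 (lysozyme) the highest. Of the measured markers of other cells, 1 of 8 for neutrophils and their precursors, 2 of 6 for dendritic cells, 3 of 6 for fibroblasts and none of 4 for T cells, 4 for B cells or 2 for erythroid cells were above that limit. No marker passed the test of the decay difference, and the median decay difference of the macrophage markers was 0.12.

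Zfp36 itself had intensities of 247, 232 and 139 at 0 min in WT, and of 17.2, 17.1 and 17.8 at 90 min. In KO its intensities were 76.2, 108 and 112 at 0 min and 24.0, 62.6 and 21.4 at 90 min. The 3 KO arrays were thus below the 3 WT arrays at the start and above them at 90 min, with the array labelled replicate 2 standing high. The probes report the gene as a whole and the deleted part is not given in the sources used here, so the remaining signal does not check the genotype labels. The decay difference was 1.91 ± 0.45 with a limma adjusted p of 0.998, and it was 1.44 without the array labelled KO at 90 min, replicate 2. It was 0.58 in the lower run and 2.57 in the higher run.

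In the comparison across all genes, 3 mRNAs lost significantly less in KO than in WT: Tnf, which encodes the cytokine TNF, and Cxcl1 and Cxcl2, which encode chemokines that draw neutrophils. These 3 were 0.0154% of the 19454 genes tested. No gene was lost significantly more in KO (0 of 19454, limma with Benjamini-Hochberg adjustment). At an unadjusted p below 0.05, 337 genes (1.73%) had a smaller loss in KO and 319 (1.64%) a larger one. That near-even split depended on the scaling and on the genes kept. With arrays centred on ribosomal protein genes it was 75 against 560, and centred on housekeeping genes it was 153 against 586. Among the 9836 genes whose mean over the 12 arrays reached the signal limit it tilted the other way, 221 against 65. The same 3 genes were called in each of these settings. Only Tnf was called with no run block or with the replicate number as the block.

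Tnf had intensities of 3501, 3810 and 3657 in WT at 0 min and of 211, 195 and 177 at 90 min. In KO it had 3925, 4211 and 4391 at 0 min and 2876, 3700 and 2701 at 90 min. The KO arrays thus started slightly above the WT arrays, and at 90 min every KO array was far above every WT array. Such a separation at 90 min, every KO array above every WT array, was seen in 856 genes (4.4%). WT kept 5.31% of its Tnf signal (95% interval 4.31 to 6.54) and KO kept 73.4% (59.6 to 90.5). The decay difference was 3.79 ± 0.20 (3.36 to 4.22; limma adjusted p = 1.31e-06), which is 13.8 times as much signal left in KO, with an interval of 10.3 to 18.6. It was 3.67 in the lower run and 3.85 in the higher run, and 3.66 without the array labelled KO at 90 min, replicate 2. At 45 min the value was already 2.01, with WT intensities of 845, 808 and 514 and KO intensities of 3388, 2847 and 3557.

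Cxcl1 encodes a ligand of the receptor CXCR2. Its WT intensities were 542, 511 and 975 at 0 min and 98.4, 98.6 and 79.0 at 90 min. In KO they were 653, 556 and 1108 at 0 min and 574, 457 and 1044 at 90 min. Replicate 3 was the highest in both genotypes at 0 min, and no KO array at 90 min came near the WT arrays. WT kept 14.2% of the signal and KO 88.0%, a decay difference of 2.64 ± 0.34 (1.91 to 3.37; limma adjusted p = 0.0293). The difference was 3.54 in the lower run and 2.18 in the higher run, 2.80 without the array labelled KO at 90 min, replicate 2 (limma adjusted p = 0.0471), and 1.55 at 45 min. The call held in 5 of 12 fits that left out 1 array and in 15 of all 25 alternative settings, with limma adjusted p up to 0.541. It was lost without any single one of KO 0 min replicates 1, 2 or 3, KO 90 min replicates 1 or 3, or WT 0 min replicates 1 or 2.

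Cxcl2 encodes another ligand of CXCR2. In WT its intensities were 1731, 1538 and 1750 at 0 min and 442, 633 and 270 at 90 min. KO arrays had 2122, 2111 and 1913 at 0 min and 2140, 2515 and 2001 at 90 min. The KO arrays at 90 min therefore lay in or above the range of the KO arrays at 0 min, while all 3 WT arrays had dropped. WT kept 25.3% of the signal and KO 108% (79.1 to 147), a decay difference of 2.09 ± 0.29 (1.46 to 2.72). Its limma adjusted p of 0.0499 was just inside the threshold, and without the array labelled KO at 90 min, replicate 2 the difference was 2.05 with an adjusted p of 0.288. It was 2.76 in the lower run, 1.76 in the higher run and 1.20 at 45 min. The call held in 3 of 12 fits that left out 1 array, those without WT 0 min replicate 3, WT 90 min replicate 2 or WT 90 min replicate 3, and in 11 of all 25 alternative settings.

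**Figure D2:**
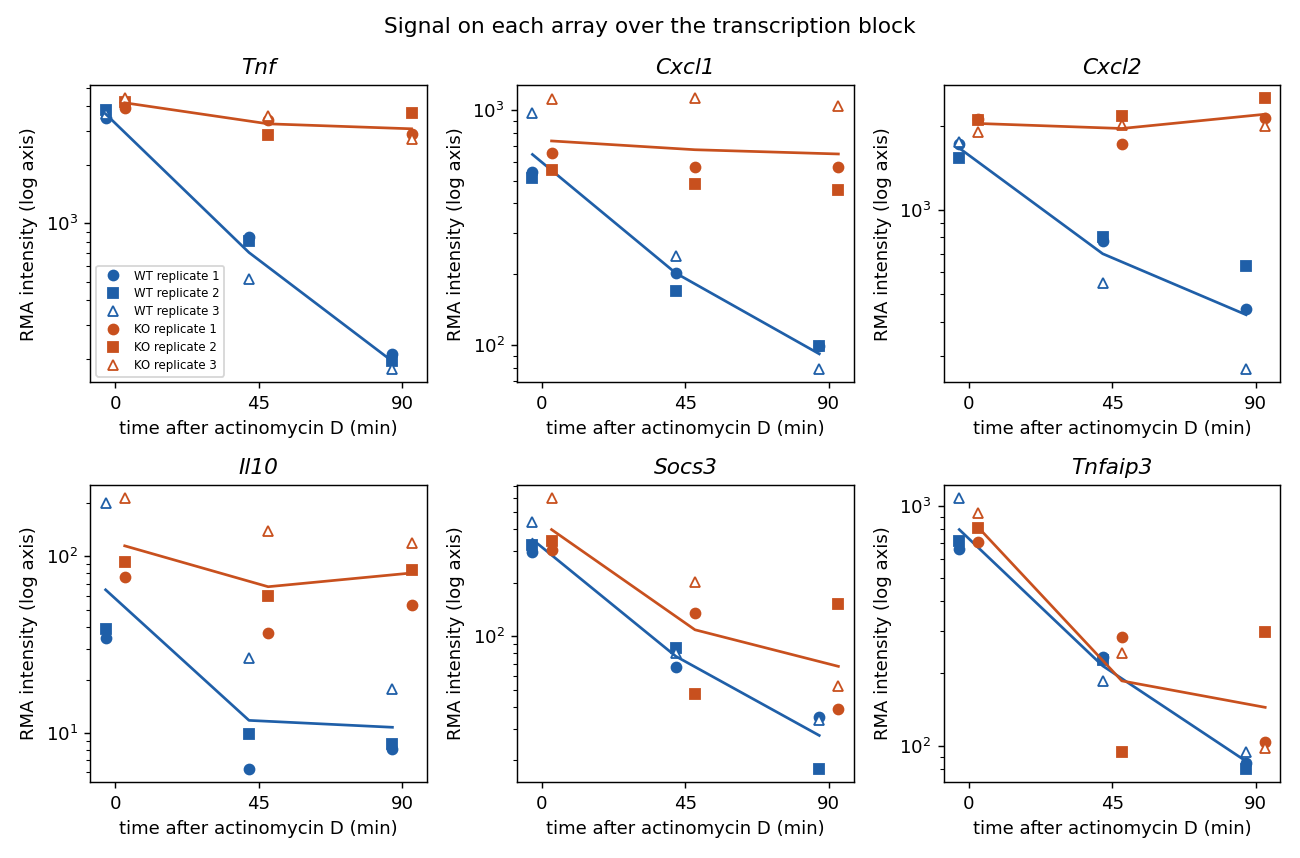
Intensity (log axis) against minutes after the transcription block for Tnf, Cxcl1, Cxcl2, Il10, Socs3 and Tnfaip3, with WT in blue, KO in orange, circles for replicate 1, squares for replicate 2 and open triangles for replicate 3; lines join the geometric means of the groups. For Tnf, Cxcl1 and Cxcl2 all KO arrays at 90 min lie above all WT arrays, and for Socs3 and Tnfaip3 the KO array labelled replicate 2 is the lowest at 45 min and the highest at 90 min.

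Il10, which encodes an anti-inflammatory cytokine, came next in order of p among named genes with a smaller loss in KO and did not pass. WT intensities were 34.5, 39.0 and 201 at 0 min and 8.07, 8.68 and 17.7 at 90 min, against 76.5, 92.5 and 214 at 0 min and 52.7, 83.3 and 119 at 90 min in KO. The KO arrays stayed above all WT arrays at 90 min, and WT at 90 min was within 1 log2 unit of the signal limit, so background bounds the WT loss. The decay difference was 2.08 ± 0.40 (1.22 to 2.93; limma adjusted p = 0.623), with 2.65 in the lower run, 1.79 in the higher run and 1.80 without the array labelled KO at 90 min, replicate 2. With arrays weighted by their quality it was 1.74 and passed the adjusted test.

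Other genes with small unadjusted p did not pass the adjusted test either. Tnfsf9, which encodes the 4-1BB ligand, had WT intensities of 176, 174 and 210 at 0 min and 14.8, 24.0 and 28.7 at 90 min, and KO intensities of 157, 152 and 241 and then 59.1, 98.7 and 55.4. The groups did not overlap at 90 min, and the array labelled replicate 2 was again the highest in KO. Its decay difference was 1.72 (0.93 to 2.50) and 1.39 without that array, with 0.75 in the lower run and 2.20 in the higher run. Plau, which encodes the urokinase plasminogen activator, had 71.3, 71.9 and 73.1 in WT at 0 min and 33.1, 35.2 and 34.2 at 90 min, against 90.7, 76.2 and 73.9 and then 72.0, 81.9 and 55.5 in KO. WT replicates were close together for this gene, and its difference was 0.86 (0.43 to 1.30), or 0.76 without that array. Pim1, a survival kinase gene, had a difference of 1.00, the cytokine subunit gene Il27 1.17, the galactosyltransferase gene B4galt3 1.38, the SOCS family gene Cish 1.56, Yrdc, which acts in tRNA modification, 1.17, and Csf2, which encodes GM-CSF, 1.30. Without the array labelled KO at 90 min, replicate 2 these were 0.83, 1.00, 1.26, 1.25, 1.04 and 1.30. In the same order the lower run gave 0.58, 1.30, 1.07, 0.48, 0.47 and 0.85. The higher run gave 1.20, 1.10, 1.53, 2.10, 1.52 and 1.52.

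**Figure D3:**
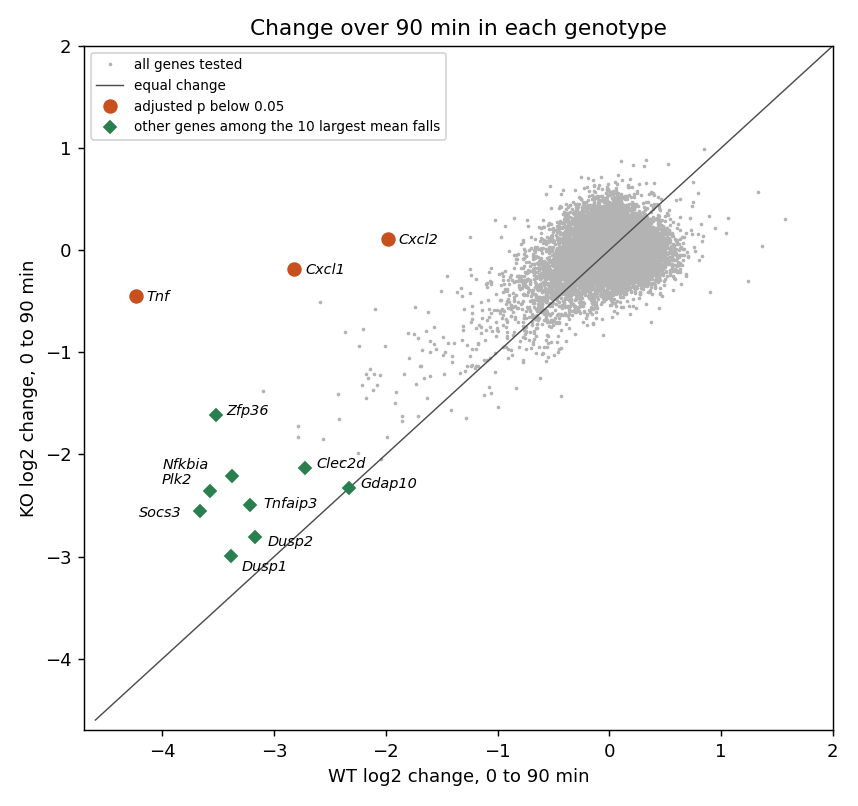
Log2 change from 0 to 90 min in KO (vertical axis) against that in WT (horizontal axis), with 1 point per gene for 19454 genes and the line of equality. Tnf, Cxcl1 and Cxcl2, in orange, lie well above the line; the other genes with the largest mean loss, such as Dusp1 and Dusp2 (green diamonds), lie nearer to it.

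On the other side, the smallest p among named genes belonged to Rbis, whose product acts in ribosome biogenesis. Its intensities in WT were 11.13, 10.97 and 11.18 at 0 min and 34.0, 33.1 and 20.7 at 90 min. In KO they were 16.8, 16.7 and 16.8 at 0 min and 17.6, 16.8 and 17.5 at 90 min. The WT arrays were higher at 90 min than at 0 min and the KO arrays hardly differed between the times, so this is a gain in WT and not a faster loss in KO. The decay difference was -1.32 ± 0.22 (-1.81 to -0.84; limma adjusted p = 0.269), and -1.27 without the array labelled KO at 90 min, replicate 2. Within the higher run it was -1.57 and passed, as it did with array weights at -1.42 and without WT 90 min replicate 3 at -1.56. The others named on this side were Chd7 (a chromatin remodeller), with -0.65 in the brightest of its 30 rows, 15 of which had a positive difference (range -0.65 to 0.43), the transcription factor gene Sox3 (-0.74), the zinc finger gene Zfp661 (-0.81), Cyp2f2 (-0.89), Krtap19-9b (-0.85), Olfr1331 (-0.80), Olfr220 (-0.92), Tspan11 (-0.82) and Ceacam20 (-0.68). Without the array labelled KO at 90 min, replicate 2 these 9 lay between -0.89 and -0.66. All but Chd7 and Sox3 among them were within 1 log2 unit of the signal limit or below it in both genotypes at 90 min.

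A list of 29 mRNAs reported as TTP targets, Zfp36 included and all of them measured, was then followed member by member. Tnf, Cxcl1 and Cxcl2 were the 3 that passed, against 0.0154% of all genes. At an unadjusted limma p below 0.05, 14 of 29 had a smaller loss in KO and none a larger one, beside 1.73% and 1.64% of all genes. The 14 include Zfp36, the knocked-out gene, and the 3 that passed. This list and those below were chosen with earlier results of these data known, so their shares are no independent test. The median decay difference was 0.54, with 22 of 29 positive, beside -0.02 and 47.4% positive over all genes tested. The share of positive values (75.9%) was not particular to this list: in ribosomal protein genes it was 75.7%, with a median of 0.10. Without the array labelled KO at 90 min, replicate 2 the median was 0.50 with 21 positive, and 2 members (Tnf and Cxcl1) passed. In that fit 13 had a smaller loss at an unadjusted p below 0.05, beside 1.16% of all genes.

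Among the interleukins on the list, Il6 had WT intensities of 328, 362 and 357 at 0 min and 166, 252 and 49.9 at 90 min, against 320, 349 and 112 and then 256, 248 and 115 in KO. Replicate 3, the array of the lower run, was low in WT at 90 min and in KO at both times. The value was 2.88 in the lower run and 0.35 in the higher run, and 1.19 (0.20 to 2.18) over all 12 arrays. Il1b had 1689, 1878 and 3126 and then 1073, 1231 and 1326 in WT, and 1590, 1630 and 2738 and then 1419, 1421 and 2735 in KO. All KO arrays were above all WT arrays at 90 min by a small margin, and the difference was 0.71 (0.23 to 1.19), with 1.24 in the lower run and 0.45 in the higher run. Il1a had 0.91 (1.84 in the lower run and 0.44 in the higher run). Without the array labelled KO at 90 min, replicate 2 the differences of Il6, Il1b, Il1a and Il23a were 1.21, 0.76, 1.09 and 0.66. Il23a, a subunit gene of IL-23, had 0.69 at intensities of 7.59 to 20.8, with WT at 90 min within 1 log2 unit of the signal limit.

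Among the chemokine targets, Ccl2, which attracts monocytes, had 582, 702 and 379 and then 325, 385 and 92.5 in WT, and 696, 657 and 363 and then 511, 576 and 387 in KO. At 90 min the groups were only just apart, and the difference of 1.07 (0.33 to 1.80) was 2.12 in the lower run and 0.54 in the higher run. Ccl4 (0.80), Ccl3 (0.55) and Cxcl3 (0.47, -0.03 to 0.97) were smaller still, and without the array labelled KO at 90 min, replicate 2 Ccl2, Ccl4, Ccl3 and Cxcl3 had 1.11, 0.62, 0.50 and 0.50. Cxcl3 lies in the same chemokine family as Cxcl1 and Cxcl2, and its WT intensities were 425, 473 and 972 at 0 min and 478, 519 and 616 at 90 min, so WT replicates 1 and 2 had lost none of it. The interval of Cxcl3 ended below the lower limits of Cxcl1 (1.91) and Cxcl2 (1.46).

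None of the remaining list members passed. Ier3, an early stress-response gene, had 0.89, but -0.15 in the lower run and 1.40 in the higher run, and 0.56 without the array labelled KO at 90 min, replicate 2. The inflammatory enzyme genes Ptgs2 (cyclooxygenase-2) and Nos2 (inducible nitric oxide synthase) had 0.54 and 0.36, and the transcription factor gene Myc had 0.50. Lif (0.24), Il17a (0.17), Ccnd1 (0.11), Plk3 (0.03), Vegfa (-0.07), Csf3 (-0.09), Il3 (-0.13), Il2 (-0.26), Il12b (-0.26), Fos (-0.36) and Ifng (-0.50) had intervals that included 0. At 90 min Csf2, Csf3, Il2, Il3, Il17a, Ifng, Lif, Fos and Myc were within 1 log2 unit of the signal limit or below it in both genotypes, so background bounds the losses that can be seen for them.

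**Figure D4:**
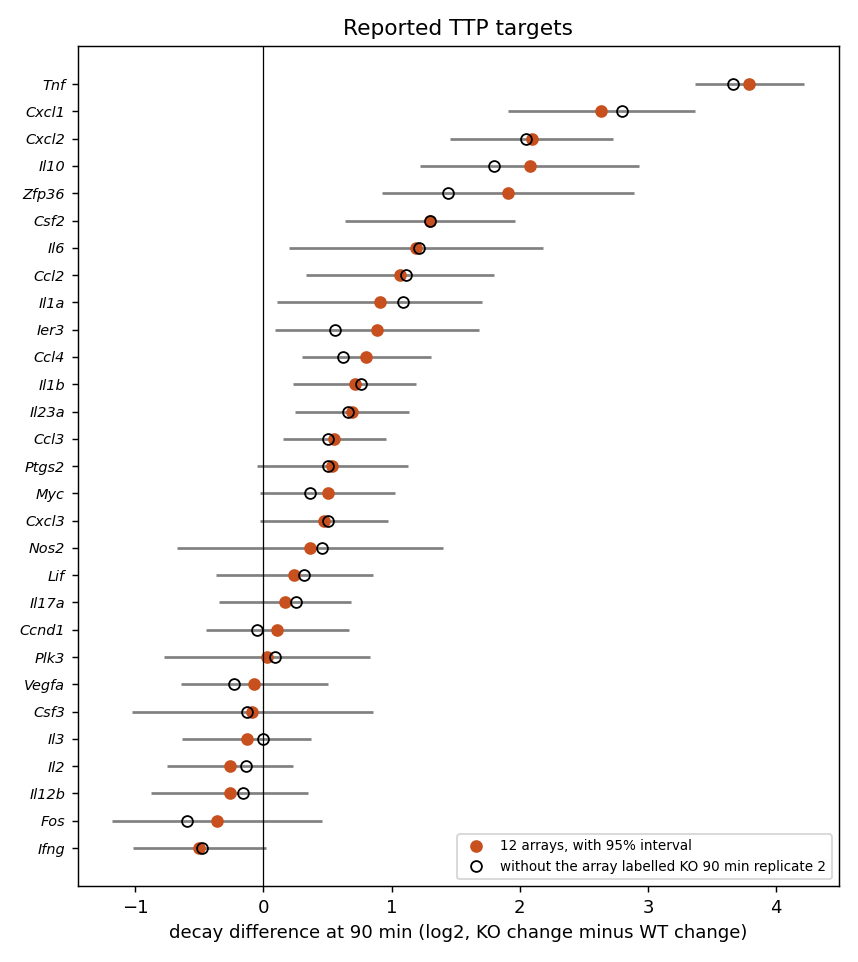
Decay difference (KO minus WT, log2) at 90 min of 29 reported TTP targets, with 95% intervals from the fit of 12 arrays (filled points) and the value without the array labelled KO at 90 min, replicate 2 (open circles). Tnf (3.79), Cxcl1 (2.64) and Cxcl2 (2.09) passed the adjusted test; the others range from 2.08 for Il10 to -0.50 for Ifng.

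Other gene groups were described in the same way. Of 22 chemokine genes, 2 passed and 19 had a positive difference, with a median of 0.27, or 0.31 without the array labelled KO at 90 min, replicate 2. Of 26 cytokine genes, 1 passed and 16 were positive, with a median of 0.26, or 0.22 without that array. Over all genes tested, 0.0154% passed in this direction and 47.4% were positive. Both groups include the genes above and are not independent of them. Of 19 measured genes of the NF-kB family and its feedback none passed, and the median of 0.23 was -0.07 in the lower run, 0.60 in the higher run and 0.09 without the array labelled KO at 90 min, replicate 2. Among 25 immediate early genes none passed and the median was 0.11, with 5 at an unadjusted p below 0.05 and a smaller loss in KO beside 1.73% of all genes, or 2 without that array beside 1.16%. The 8 SOCS genes, inhibitors of cytokine receptors, had a median of 0.32, or 0.12 without it.

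The groups closest to the work of TTP itself had medians around 0 over all 12 arrays, but not in each run. None of 14 measured RNA-binding regulators and none of 30 genes of the deadenylation and decay machinery passed. The medians were 0.04 and -0.03, with 0.42 and 0.16 in the lower run and 0.01 and -0.07 in the higher run. In each group 1 gene had a smaller loss in KO at an unadjusted limma p below 0.05, beside 1.73% of all genes. These were Zfp36, the knocked-out gene itself, and Edc4. Without the array labelled KO at 90 min, replicate 2 the medians became -0.03 and -0.06. Leaving out WT 0 min replicate 3 instead gave -0.12 and -0.15. In that last fit 4 RNA-binding regulators had a smaller and 4 a larger loss in KO at an unadjusted p below 0.05. Of the decay machinery genes 2 had a smaller and 9 a larger loss. Over all 19454 genes that fit gave 1059 with a smaller and 1404 with a larger loss. With all 12 arrays these were 337 and 319. In the decay group Upf1, the helicase of nonsense-mediated decay, had 0.72 (-0.13 to 1.56) and the decapping scaffold gene Edc4 had 0.61 (0.06 to 1.15), or 0.67 and 0.55 without the array labelled KO at 90 min, replicate 2. Zc3h12a, which encodes the endonuclease Regnase-1, had 0.85 (-0.09 to 1.79) and 0.43 without it. The 15 MAP kinase phosphatase and Sprouty genes had a median of -0.05, the 17 survival and apoptosis genes 0.11, and the 20 interferon-stimulated genes 0.03, or -0.18, 0.00 and -0.16 without that array. In these groups Dusp4 had 0.77, Xiap -0.55 and Isg20 -0.53, or 0.55, -0.54 and -0.60 without it. The 12 housekeeping genes (median 0.07) and the 37 ribosomal protein genes (median 0.10) had no member past the test, and differences of at most 0.39 (Tbp) and 0.42 (Rpl24). Small positive differences were common in both: 8 of 12 and 28 of 37 were positive, beside 47.4% of all genes. Without the array labelled KO at 90 min, replicate 2 these were 7 and 31.

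Whether the smaller loss in KO extended to short-lived mRNAs at large was examined in genes sorted by their mean change over both genotypes, which does not use the difference. With a mean log2 change of -1 or lower at an adjusted p below 0.05 there were 96 genes (0.493%). Of these, 89 had a positive decay difference, with a median of 0.53 and median changes of -1.70 in WT and -1.15 in KO. The difference was positive in both runs in 56 of the 96, beside 18.4% of all genes. Tnf and Cxcl1 were the 2 that passed the test of the difference, and 23 of the 96 had a smaller loss in KO at an unadjusted p below 0.05, beside 1.73% of all genes.

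The size of this general shift moved with the array that went against the order in time. Without it 116 genes met the same definition, of which 77 (66.4%) had a positive difference, and the median was 0.18. At an unadjusted p below 0.05, 17 of these had a smaller loss and 1 a larger loss in KO, beside 1.16% of all genes with a smaller loss. Without WT 0 min replicate 3, the array with the lowest weight (0.227), it was 73 of 91 genes with a median of 0.46. There 28 had a smaller and 3 a larger loss at an unadjusted p below 0.05, beside 5.44% of all genes with a smaller loss. Across classes of mean loss over 12 arrays the median difference was 0.74 in 18 genes that lost more than 2 log2 units, 0.77 in 23 genes between 1.5 and 2, 0.37 in 57 genes between 1 and 1.5, 0.16 in 358 genes between 0.5 and 1, and 0.02 in 7760 genes between 0 and 0.5. With classes formed again without the array labelled KO at 90 min, replicate 2 these medians were 0.27, 0.34, 0.05, -0.02 and -0.01. The lower run, which does not hold that array, gave 0.34, 0.44, 0.35, 0.14 and -0.03 in the classes of 12 arrays, with 1 array a group. That run also gave 0.37 for the 37 ribosomal protein genes, which hardly fell (median changes of -0.07 in WT and 0.08 in KO). In the higher run they had -0.03. A positive median in the lower run was thus not particular to short-lived mRNAs.

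**Figure D5:**
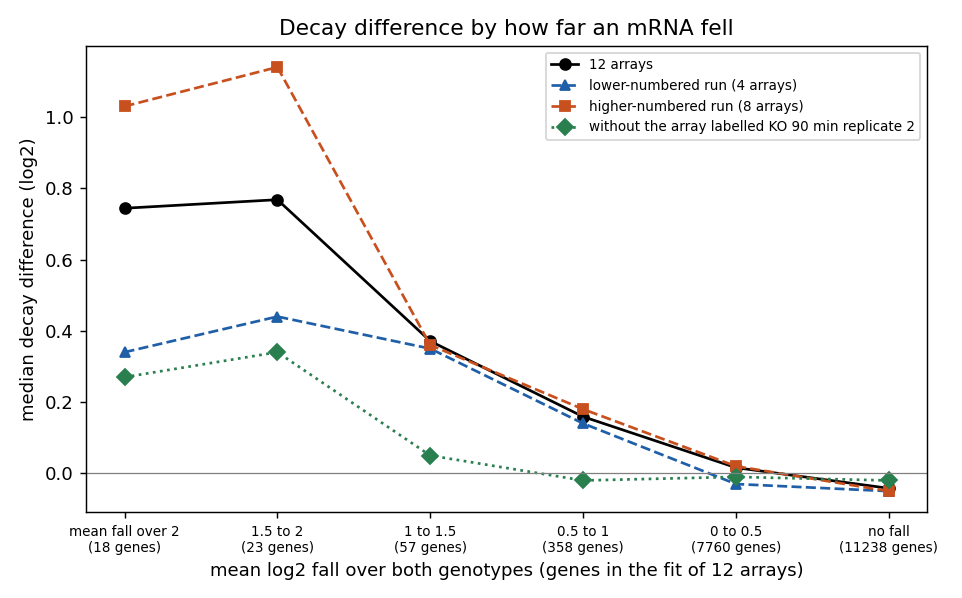
Median decay difference (log2) of genes in each class of mean loss over both genotypes, from all 12 arrays, the lower run, the higher run, and without the array labelled KO at 90 min, replicate 2; the gene counts on the axis are those of the 12 arrays. In the class of more than 2 log2 units the median is 0.74 with all arrays and 0.27 without that array.

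Single short-lived mRNAs showed the same dependence. Socs3, a feedback inhibitor of cytokine signalling, had WT intensities of 298, 327 and 437 at 0 min and 34.9, 17.97 and 33.6 at 90 min, and KO intensities of 306, 343 and 596 and then 38.8, 152 and 52.3. At 90 min KO replicates 1 and 3 were close above the WT arrays and the array labelled replicate 2 was far above them, while its counterpart labelled KO at 45 min had 47.2, below the 134 and 202 of the other replicates. The decay difference of Socs3 was 1.11 (-0.17 to 2.38), and 0.43 (-0.28 to 1.13) without that array. Nfkbia, which encodes the NF-kB inhibitor IkB alpha, had KO intensities at 90 min of 148, 503 and 185 against 95.5, 106 and 180 in WT. Its difference was 1.17 (-0.00 to 2.34) and 0.52 without the array.

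Tnfaip3, which encodes the ubiquitin-editing enzyme A20, had KO intensities at 90 min of 103, 299 and 97.6 against 85.0, 80.1 and 93.6 in WT. Replicates 1 and 3 of KO lay just above the WT arrays. Its difference was 0.72 (-0.33 to 1.76) and 0.14 (-0.36 to 0.65) without the array labelled replicate 2. The kinase gene Plk2 had 1.21 and 0.61, the transcription factor genes Junb 1.01 and 0.55 and Irf1 0.71 and 0.07, and Clec2d, which encodes a ligand of an inhibitory lectin receptor, 0.59 and 0.21. Dusp1, which encodes a phosphatase that inactivates p38, had 0.39 (-0.77 to 1.55) and -0.18 (-0.96 to 0.60). WT kept 9.56% of its Dusp1 signal and KO 12.5%. Dusp2, a phosphatase of the same family, kept 11.1% in WT and 14.3% in KO, a difference of 0.36 (-0.49 to 1.21), or 0.27 without that array. Gdap10 kept 19.9% in both genotypes over all 12 arrays, with WT at 90 min near the signal limit, but its difference was -0.57 (-1.63 to 0.49) without that array.

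Tnf stood apart from these mRNAs in size. Of the 96 genes, 94 had an upper limit below 3.36, the lower limit of Tnf, and 26 had an upper limit below 1. Clec2d (-2.43) and Gdap10 (-2.33), with mean log2 changes next to that of Tnf (-2.34), had differences of 0.59 and -0.00. Without the array labelled KO at 90 min, replicate 2 these were 0.21 and -0.57. Other genes near Tnf in mean change had larger differences over all 12 arrays. These were 0.95 for Tagap (-2.31), 1.06 for Edn1 (-2.25), 1.72 for Tnfsf9 (-2.24) and 1.91 for Zfp36 (-2.57), against 3.79 for Tnf. For Tnfsf9 and Zfp36 they were 1.39 and 1.44 without that array. In 32 of the 96 genes WT at 90 min was within 1 log2 unit of the signal limit or below it, and in 23 KO was, so that their differences are bounded by background.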

How the data were processed

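RNA of 12 macrophage samples (4 groups of 3) was hybridised to Affymetrix Mouse Gene ST arrays. The authors' values come from RMA in Affymetrix Expression Console, per the submitters' processing notes; no versions are stated. The deposited intensity values are on a linear scale, as judged from their range (array medians 7.41 to 8.19, maxima 7379 to 14337). No genome build is named, so no positions are given. The log2 was taken without an offset. Of 25138 rows, 21039 had 1 symbol in the platform annotation, 1485 several and 2614 none listed; symbols were updated through RefSeq (GRCm38.p6) and 84 stayed as they were. The brightest row of each symbol by its mean was kept, which gave 19454 genes, 874 of them with more than 1 row.

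Group means and the run of sample numbers entered a limma 3.58.1 model (R 4.3.3; lmFit, eBayes), two-sided, with Benjamini-Hochberg adjustment at 0.05. The procedure was tested on simulated data. Correlations within groups were 0.971 to 0.992, and no arrays were counted as duplicates. The labels' shared replicate numbers were not taken to pair arrays, since this asked for every correlation of deviations to be over 0.1. That held in 4 of 6 pairs of groups, and the 18 correlations ran from -0.291 (WT at 0 and 90 min) to 0.702. The number of arrays limits the precision.

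Members and gene lists were chosen with earlier results of these data known. Named were Zfp36, genes past the threshold, the 10 smallest p in each direction among the rest, and all TTP list members. Up to 2 members per other list and the 10 largest mean losses were also named. Tagap and Edn1 were added for a mean loss near that of Tnf. Genes with provisional names were counted only. Alternatives were 25, of which 12 left out 1 array each; leaving out KO 90 min replicate 2 or WT 0 min replicate 3 was added for lists and classes after seeing the data.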

Additional observations from a re-analysis of the deposited data

Results flagged for a closer look

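The change from 0 to 90 min differed between the genotypes, by the test of that difference itself, in 3 genes. The decay difference was 3.79 for Tnf, 2.64 for Cxcl1 and 2.09 for Cxcl2 (log2, KO minus WT), and in each gene it was positive in 3 of 3 same-numbered sets of arrays. These sets are the arrays that gave the calls, so their signs describe the calls and are no further test of them. The replicate numbers were not taken as pairs in the fit.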

How the results depend on the processing

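Under 25 alternatives Tnf was called in all, with a difference of 3.66 to 3.88. Cxcl1 was called in 15 and Cxcl2 in 11, and both stayed positive (2.18 to 2.80 and 1.76 to 2.35), with adjusted p up to 0.541 and 0.489. Genes called with a smaller loss in KO numbered 1 with no run block, 1 with a replicate block and 1 with an offset of 8, and 1 to 3 when 1 array was left out. Only Tnf was called without any single one of the KO 0 min replicates 1, 2 or 3, KO 90 min replicates 1 or 3, or WT 0 min replicates 1 or 2. With the replicate block the adjusted p was 0.071 for Cxcl1 and 0.107 for Cxcl2, so this block ended both calls. In 4 of 6 pairs of groups every same-numbered correlation was over 0.1, which fell short of the rule for pairing.

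Genes called with a larger loss in KO numbered 2 within the higher run (Iigp1 and Rbis), 1 with array weights (Rbis), and 0 to 1 with 1 array left out (Iigp1 without WT 0 min replicate 3, Rbis without WT 90 min replicate 3). The genes with a mean log2 change of -1 or lower numbered 59 with an offset of 8 and 86 to 116 with 1 array left out. Centring on ribosomal protein genes moved the median of all genes from -0.015 to -0.143, and centring on housekeeping genes moved it to -0.110.

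Small differences changed sign, and the cause was not tested. Csf3 was 0.03 with quantile normalization, 0.23 with array weights and -0.50 to 0.22 with 1 array left out. Il3 was 0.03 with array weights and -0.27 to 0.05 with 1 array left out. Ccnd1 was -0.02 centred on ribosomal protein genes, -0.03 with array weights and -0.06 to 0.24 with 1 array left out. Plk3 was -0.09 in the higher run, -0.10 and -0.07 centred on ribosomal protein and housekeeping genes, and -0.29 to 0.26 with 1 array left out. With 1 array left out Lif ran from -0.04 to 0.41, Vegfa from -0.26 to 0.14 and Dusp1 from -0.18 to 0.93. With only genes whose mean reached the signal limit, the medians were 0.03 for MAP kinase phosphatases and Sprouty, -0.01 for RNA-binding regulators and 0.01 for genes with no mean loss. Centred on housekeeping genes they were -0.06 for RNA-binding regulators, -0.07 for interferon-stimulated genes and -0.02 for housekeeping genes. Without KO 90 min replicate 2 or WT 0 min replicate 3 they ran from -0.18 to 0.04 for MAP kinase phosphatases and Sprouty, -0.12 to -0.03 for RNA-binding regulators, -0.19 to -0.16 for interferon-stimulated genes, -0.02 to 0.21 in the class of 0.5 to 1, and -0.01 to 0.08 in the class of 0 to 0.5, which was -0.03 in the lower run. Signal over background limits genes whose intensity at 90 min is near 7.83.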
